A study of Mus musculus with 11 samples.

Results

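MHC class I molecules and the machinery that loads them with peptide were followed across 4 groups of cultured adult mouse microglia, through 10 genes picked by name from a table of 34745 genes. These were the heavy chains H2-K1, H2-D1, H2-T23 and H2-M3, the light chain B2m, the peptide transporter subunits Tap1 and Tap2, the loading factors Tapbp and Tapbpl, and the transactivator Nlrc5. All 10 were found, and all 10 were among the 10938 genes tested, which had an FPKM (fragment counts scaled to gene length and library total) of at least 1 in at least 2 libraries. The microglia, the resident macrophages of the brain, were prepared from C57BL/6 cerebrum at an age of 6 to 8 weeks and were kept in culture for 10 to 14 days with 5 ng/ml TGF-beta1 and 10 ng/ml M-CSF, which all groups shared. The combined group (Pam3CSK4+IFN-gamma, 3 libraries) received Pam3CSK4, a synthetic lipopeptide agonist of Toll-like receptor 2, at 100 ng/ml for 24 h and after it 20 ng/ml of IFN-gamma (interferon-gamma), again for 24 h. The IFN-gamma group (3 libraries) received that cytokine alone, the Pam3CSK4 group (2 libraries) the agonist alone, and the Control group (3 libraries) neither. For combined replicates 2 and 3 a label writes the agonist with another last digit, and they were taken as given the same agent. The labels do not state how long the Pam3CSK4 group was kept after the agonist, or whether replicates were separate cultures or animals, so the p-values measure only the spread between these libraries, which may be technical.

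MHC class I molecules show peptides from inside the cell to CD8 T cells: a heavy chain pairs with beta-2 microglobulin in the endoplasmic reticulum and receives a peptide that the TAP transporter has pumped in from the cytosol. Tapasin, the product of Tapbp, holds the empty heavy chain at TAP and helps to select peptides, and its relative TAPBPR, the product of Tapbpl, edits peptides further. NLRC5 is recruited to promoters of class I genes by factors bound at conserved X and Y boxes, and IFN-gamma is a classical inducer of the pathway, acting in part through IRF1. Resting microglia are known for low antigen presentation and for raising it in inflammation.

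The libraries held between 15033702 and 20321017 counts. The 10 genes together took 1.31 to 1.39% of the counts in combined libraries, 1.81 to 2.08% in IFN-gamma libraries, 0.825 to 0.841% in Pam3CSK4 libraries and 0.534 to 0.807% in Control libraries. All 11 microglial markers examined, among them Csf1r and P2ry12, stood at 1 FPKM or more in every library, and their summed level was 4958 to 5244 FPKM in combined, 8840.1 to 9535 FPKM in IFN-gamma, 5459.7 to 5731 FPKM in Pam3CSK4 and 7093 to 10320.7 FPKM in Control libraries. Transcripts of mural cells and fibroblasts stood apart in 3 libraries: the summed level of 10 such markers was 2212 FPKM in Control replicate 3, 121 FPKM in IFN-gamma replicate 1 and 55.6 FPKM in combined replicate 3, and at most 3.84 FPKM in each of the others. On a list of 4 neuronal markers the same libraries stood apart too, with sums of 6.93, 10.7 and 3.50 FPKM in that order. Only 1 of these 4 markers reached 1 FPKM there, and the sum was at most 0.412 FPKM in each other library. Control replicate 3 also had the lowest FPKM of the Control group for all 10 genes. Shares of a rise in combined libraries are therefore given with and without these 3 libraries, and so are part of the counts of called genes and of the ratios. Levels per length and likeness rest on all 11. Of 5 endothelial markers, with Cldn5 at 0 in all libraries, the sum was 2.78 to 4.95 FPKM in combined, 22.9 to 28.8 FPKM in IFN-gamma, 2.49 to 2.80 FPKM in Pam3CSK4 and 17.1 to 26.1 FPKM in Control libraries. Of 11 markers of other immune cells, with Cd3d, Cd3e and Nkg7 at 0 in all libraries, it was 12.9 to 18.8 FPKM in combined, 4.70 to 7.78 FPKM in IFN-gamma, 7.57 to 9.78 FPKM in Pam3CSK4 and 4.49 to 8.31 FPKM in Control libraries. In each library 1 to 3 of the 5 endothelial markers stood at 1 FPKM or more, and 1 or 2 of the 11 markers of other immune cells. Both sums thus rest on few genes and do not measure the number of such cells. The part of these lists in the results was not tested. These are bulk samples, in which fewer cells of a type and less RNA per cell cannot be told apart.

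Before the values, the promoters of the heavy chains are shown, because all 4 genes were called higher after IFN-gamma, and H2-K1 and H2-M3 also after Pam3CSK4. The call of H2-K1 after Pam3CSK4 was lost in 8 of the alternative settings given below. The windows hold 250 bases before and 50 after the start that RefSeq gives on GRCm38.p6, read 5′ to 3′ on the gene's strand. Capitals mark matches to 5 motifs searched on both strands: the interferon-stimulated response element (ISRE) core GAANNGAAA, the gamma-activated site TTCNNNGAA, the NF-kappaB site GGGATTCCC, the X2 box core TGACG and the Y box CCAAT, none of which overlapped another here.
H2-K1: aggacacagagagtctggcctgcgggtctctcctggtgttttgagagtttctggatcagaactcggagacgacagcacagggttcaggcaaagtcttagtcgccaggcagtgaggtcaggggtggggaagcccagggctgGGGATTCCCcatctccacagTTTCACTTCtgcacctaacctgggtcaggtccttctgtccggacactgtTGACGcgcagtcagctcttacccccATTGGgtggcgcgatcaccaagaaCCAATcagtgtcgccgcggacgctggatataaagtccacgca
H2-D1: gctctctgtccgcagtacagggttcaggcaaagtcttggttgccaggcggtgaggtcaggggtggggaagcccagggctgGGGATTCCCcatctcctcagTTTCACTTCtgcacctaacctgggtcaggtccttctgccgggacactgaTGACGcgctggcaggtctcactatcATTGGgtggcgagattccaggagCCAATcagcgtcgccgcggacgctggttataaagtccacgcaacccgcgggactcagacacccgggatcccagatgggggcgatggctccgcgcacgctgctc
H2-M3: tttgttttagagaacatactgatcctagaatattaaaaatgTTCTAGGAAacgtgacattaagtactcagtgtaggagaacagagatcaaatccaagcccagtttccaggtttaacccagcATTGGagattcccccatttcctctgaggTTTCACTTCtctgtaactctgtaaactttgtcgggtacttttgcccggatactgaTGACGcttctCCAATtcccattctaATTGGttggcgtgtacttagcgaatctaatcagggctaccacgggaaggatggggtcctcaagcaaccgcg
H2-T23: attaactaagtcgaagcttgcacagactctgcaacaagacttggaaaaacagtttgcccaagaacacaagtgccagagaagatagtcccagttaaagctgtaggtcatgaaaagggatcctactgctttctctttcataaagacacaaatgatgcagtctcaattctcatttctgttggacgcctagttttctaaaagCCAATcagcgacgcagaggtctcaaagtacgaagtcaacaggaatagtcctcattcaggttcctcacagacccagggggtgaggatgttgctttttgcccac
These lie at chr17:34000298-34000597 on the minus strand for H2-K1 (the window listed first of 2 in the table), chr17:35262844-35263143 on the plus strand for H2-D1, chr17:37269984-37270283 on the plus strand for H2-M3 and chr17:36032652-36032951 on the minus strand for H2-T23. RefSeq's table held windows for 7 of the 10 genes, the other 3 being Tap2, Tapbpl and Nlrc5. The H2-K1 and H2-D1 windows aligned over 227 bases, of which 206 were identical (90.7%). Both held an NF-kappaB match, from base -110 to -102 in H2-K1 and from -170 to -162 in H2-D1, counted from the start base as 0. That motif occurred in 0.353% of all 32851 promoter windows of the same length. The ISRE core was found in H2-K1, H2-D1 and H2-M3, against 7.52% of all windows, and the gamma-activated site in H2-M3 only of the 7, against 8.30%. The X2 core and the Y box were found together in 5 of the 7 windows (H2-K1, H2-D1, H2-M3, B2m and Tap1), against 7.73% of all windows. H2-T23 and Tapbp held a Y box and no other of the motifs in these windows, and the Y box occurred in 37.4% of all windows. The Tapbp window begins at base 33919228, inside the counted locus, which starts at 33915899. Most of the H2-T23 window also lies inside its locus, which ends at 36032855 and is read on the minus strand. Bases outside these windows were not searched. The motifs were chosen with the windows in view, and a match is a string of letters, not a shown binding site.

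**Figure D1:**
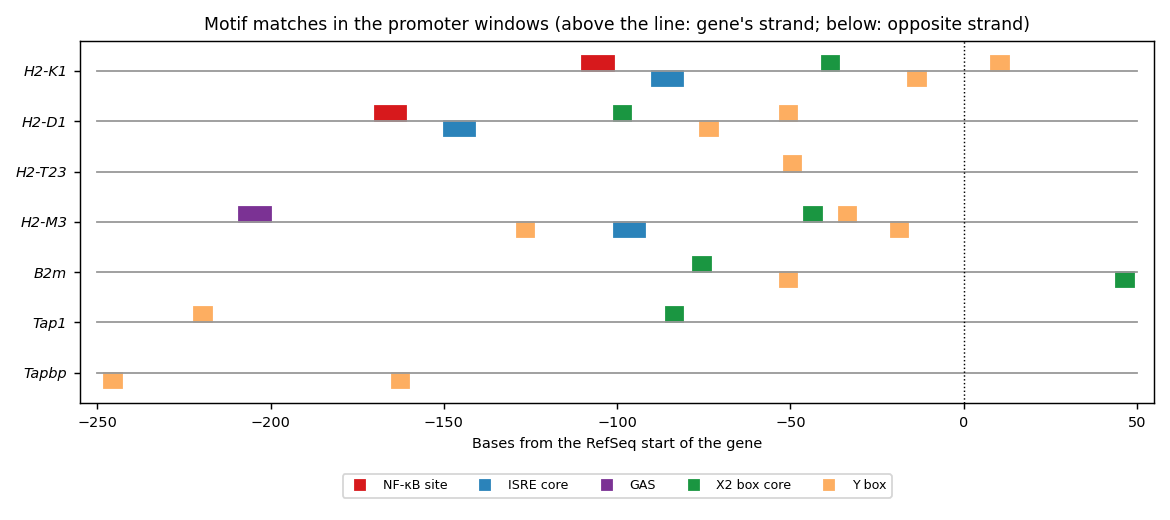
Positions of motif matches in the promoter windows of 7 genes, in bases from the RefSeq start; boxes above a line are on the gene's strand and boxes below it on the opposite strand. The NF-kappaB site (red) is drawn in H2-K1 and H2-D1 only, and the Y box (orange) in all 7 windows.

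The classical heavy chains H2-K1 (ENSMUSG00000061232, chromosome 17, 33996017 to 34000333, mm10 throughout) and H2-D1 (ENSMUSG00000073411, chromosome 17, 35262730 to 35267499) present peptides to CD8 T cells on nearly all nucleated cells. H2-K1 stood at 309, 324 and 291 FPKM in combined libraries, 429, 328 and 485 FPKM in IFN-gamma, 169.6 and 179 FPKM in Pam3CSK4 and 135, 114 and 100.2 FPKM in Control libraries. No groups overlapped, and the order was IFN-gamma, combined, Pam3CSK4, Control, with IFN-gamma replicate 2 close above the combined libraries. H2-D1 stood at 848, 929 and 952 FPKM in combined libraries, 992, 1027 and 1174 FPKM in IFN-gamma, 525 and 580.1 FPKM in Pam3CSK4 and 538, 545 and 341 FPKM in Control libraries. Its Pam3CSK4 and Control libraries overlapped, while the IFN-gamma libraries lay above the combined ones and these above the rest.

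H2-T23 (ENSMUSG00000067212, chromosome 17, 36029773 to 36032855) encodes Qa-1, a non-classical heavy chain that shows leader peptides of other class I chains to natural killer cell receptors. It stood at 139, 144 and 135 FPKM in combined libraries, 264, 266 and 301 FPKM in IFN-gamma, 33.8 and 30.3 FPKM in Pam3CSK4 and 36.2, 37.3 and 23.4 FPKM in Control libraries. The combined libraries lay well below the IFN-gamma ones, and Pam3CSK4 and Control libraries overlapped. H2-M3 (ENSMUSG00000016206, chromosome 17, 37270220 to 37274484) presents N-formylated peptides, such as those of bacteria. Its values were 47.4, 49.6 and 47.1 FPKM in combined libraries, 44.4, 52.3 and 54.3 FPKM in IFN-gamma, 44.2 and 40.4 FPKM in Pam3CSK4 and 23.9, 24.1 and 16.0 FPKM in Control libraries. Here the combined and IFN-gamma libraries overlapped, and the Pam3CSK4 libraries lay far above Control, up to IFN-gamma replicate 1.

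B2m (ENSMUSG00000060802, chromosome 2, 122147686 to 122153083) encodes beta-2 microglobulin, the light chain that all these heavy chains share. It stood at 6560.0, 5439.7 and 5523 FPKM in combined libraries, 8353, 10005 and 9635 FPKM in IFN-gamma, 4949.6 and 4453 FPKM in Pam3CSK4 and 4382, 5336 and 3338 FPKM in Control libraries. The IFN-gamma libraries stood alone at the top. The lowest combined library was little above Control replicate 2, and Pam3CSK4 and Control libraries overlapped.

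Tap1 (ENSMUSG00000037321, chromosome 17, 34187553 to 34197225) and Tap2 (ENSMUSG00000024339, chromosome 17, 34203527 to 34216321) encode the subunits of the peptide transporter. For Tap1 the libraries read 47.5, 46.1 and 48.5 FPKM in the combined group, 45.0, 46.2 and 55.2 FPKM in IFN-gamma, 12.2 and 11.1 FPKM in Pam3CSK4 and 4.96, 5.09 and 3.54 FPKM in Control. Combined and IFN-gamma libraries overlapped, and Pam3CSK4 lay between them and Control. For Tap2 the libraries read 33.6, 35.0 and 35.2 FPKM in the combined group, 44.7, 50.6 and 52.7 FPKM in IFN-gamma, 16.0 and 16.0 FPKM in Pam3CSK4 and 14.7, 14.1 and 10.4 FPKM in Control. Here the combined libraries lay below IFN-gamma without overlap, and Pam3CSK4 was only just above Control.

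Tapbp (ENSMUSG00000024308, chromosome 17, 33915899 to 33929288), the tapasin gene, stood at 287, 272 and 267 FPKM in combined libraries, 389, 406 and 411 FPKM in IFN-gamma, 148 and 162 FPKM in Pam3CSK4 and 102, 108 and 79.3 FPKM in Control libraries. Its groups formed 4 separate steps in the order IFN-gamma, combined, Pam3CSK4, Control. Tapbpl (ENSMUSG00000038213, chromosome 6, 125223933 to 125231860), the gene of the peptide editor TAPBPR, stood at 39.3, 36.9 and 35.7 FPKM in combined libraries, 62.7, 72.2 and 78.3 FPKM in IFN-gamma, 7.30 and 8.10 FPKM in Pam3CSK4 and 10.6, 8.71 and 7.43 FPKM in Control libraries. It had the pattern of H2-T23, with Pam3CSK4 and Control libraries overlapping at the bottom. Nlrc5 (ENSMUSG00000074151, chromosome 8, 94472763 to 94527272), the class I transactivator, stood at 22.1, 20.5 and 21.1 FPKM in combined libraries, 18.7, 23.6 and 20.8 FPKM in IFN-gamma, 5.06 and 4.79 FPKM in Pam3CSK4 and 1.64, 1.71 and 1.49 FPKM in Control libraries. Combined and IFN-gamma libraries overlapped, with Pam3CSK4 above Control and without overlap.

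**Figure D2:**
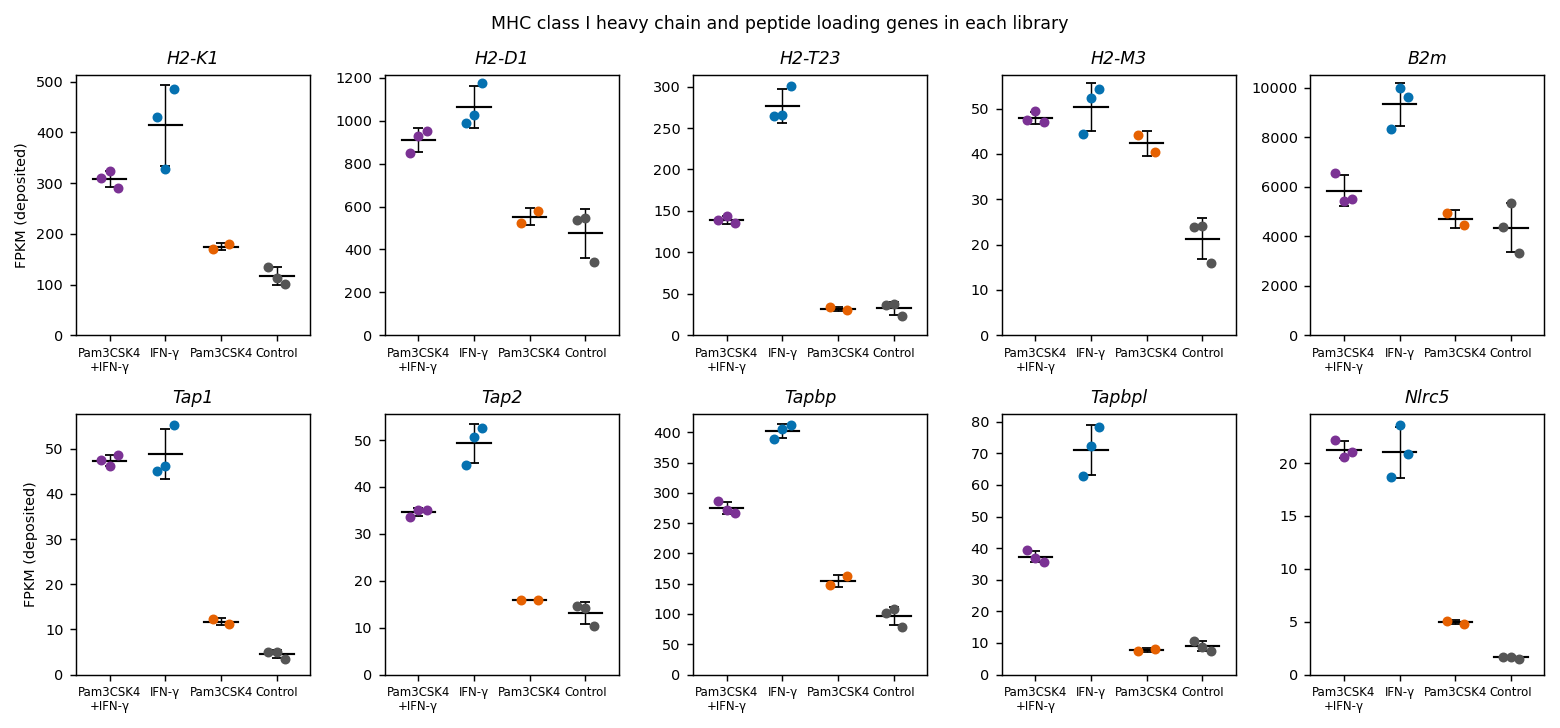
Deposited FPKM (y axes, each from 0) of the 10 genes in every library, with 1 point per library and lines for the mean ± SD of combined, IFN-gamma, Pam3CSK4 and Control groups. The combined libraries sit below the IFN-gamma ones for H2-T23, B2m and Tapbpl and among them for Tap1, H2-M3 and Nlrc5.

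Levels of different genes cannot be set side by side in the deposited FPKM. Each FPKM equalled the count divided by the library total and by a fixed length, and for 7 of the 10 genes that length was the sum of all distinct exons annotated in GENCODE M21, overlapping exons counted each time. For H2-T23 it came to 6451 bases, against a locus of 3083 bases, and for Tap1 to 11741 bases, against a locus of 9673 bases. In counts per kilobase of merged exons, scaled to library total as CPM, the IFN-gamma libraries held 9331 ± 867 counts of B2m, 1282 ± 117 of H2-D1, 1025 ± 198 of H2-K1 and 618 ± 46.0 of H2-T23 (SD, n = 3 libraries). The highest and lowest of the other genes on this scale were Tapbp at 522 ± 15.1 and Nlrc5 at 30.7 ± 3.53 (SD, n = 3), with Tap1 at 105 ± 11.9 and H2-M3 at 50.3 ± 5.22 between them. In Control libraries B2m, at 4352 ± 999.5, was likewise followed by H2-D1 at 572 ± 139.6 and H2-K1 at 288 ± 43.4 (SD, n = 3). H2-T23 stood at 72.1 ± 17.3 there, below Tapbp at 125 ± 19.7 (SD, n = 3), so the order of these genes was reversed after IFN-gamma.

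**Figure D3:**
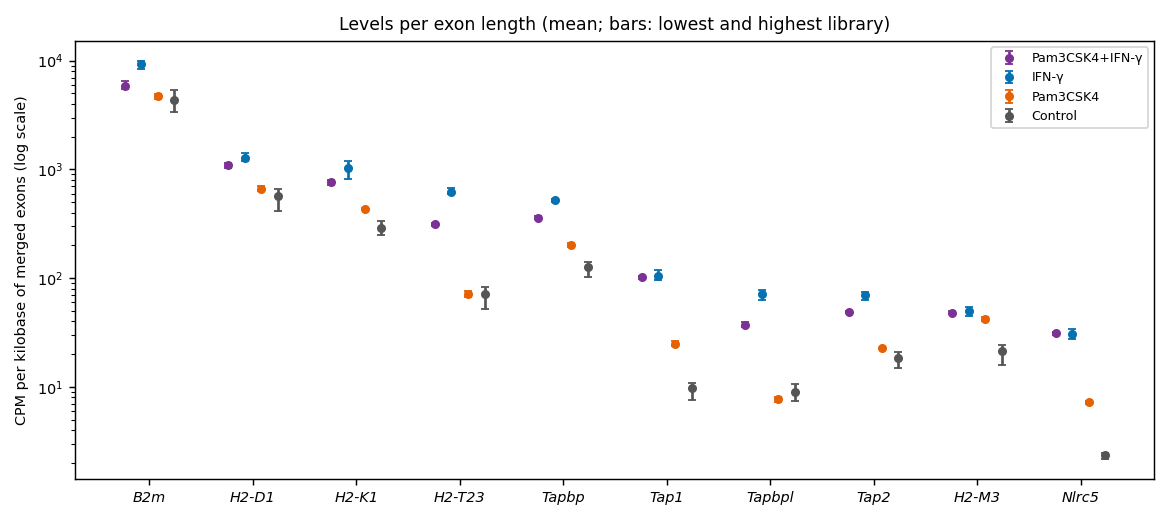
CPM per kilobase of merged exons (y axis, log scale) for the 10 genes in combined, IFN-gamma, Pam3CSK4 and Control groups, with points at the mean and bars from the lowest to the highest library. B2m is highest in every group, and Nlrc5 is lowest in the 4 groups, being 30.7 in IFN-gamma and 2.35 in Control libraries on average.

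Some reads of these genes could have come from elsewhere. Of all stretches of 50 bases in their annotated transcripts, 9.63% in H2-K1, 12.8% in H2-D1 and 14.5% in H2-T23 also occurred in a transcript of another gene, against 0.576% in H2-M3 and none in B2m. In Tapbp 23.2% were shared, of which 20.3% of all stretches with Gm19412, a gene that overlaps it on the opposite strand. The protein-coding gene Zbtb22 overlaps Tapbp on the same strand, over 3422 bases. In Tap2 11.6% were shared, of which 9.22% of all stretches with Gm15821, which overlaps it on the opposite strand. B2m lies inside an opposite-strand gene, Patl2, as Tapbpl does with Vamp1 and H2-T23 with A930015D03Rik. No source used here gives the strand setting or says how reads with several matches were treated, so values of the 3 heavy chains H2-K1, H2-D1 and H2-T23 and of the overlapped genes are uncertain to that extent.

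IFN-gamma alone raised all 10 genes, against 20% of all tested genes called higher and 21.6% called lower at an edgeR adjusted p under 0.05. The comparison with Control asks what the cytokine did without the agonist. The largest change was in Nlrc5, 13.9-fold, followed by Tap1 at 11.5-fold, H2-T23 at 9.09-fold and Tapbpl at 8.50-fold. The smallest changes were in B2m, 2.27-fold, and H2-D1, 2.38-fold, the most abundant of the 10. Abundance and change did not run together beyond these, as the far less abundant H2-M3 rose 2.51-fold and the abundant H2-K1 3.80-fold.

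By role, the classical heavy chains changed by 1.93 ± 0.19 on the log2 scale for H2-K1 (edgeR adjusted p = 5.34e-05) and 1.25 ± 0.21 for H2-D1 (adjusted p = 0.00141), each ± the standard error. The non-classical H2-T23 changed by 3.18 ± 0.22 (adjusted p = 5.67e-06) and H2-M3 by 1.33 ± 0.19 (adjusted p = 0.000565). B2m rose by 1.19 ± 0.20 (adjusted p = 0.00145), close to H2-D1 and H2-M3. The transporter subunits were unequal: Tap1 rose by 3.52 ± 0.20 (adjusted p = 1.58e-06) and Tap2 by 2.01 ± 0.17 (adjusted p = 2.27e-05). Of the tapasin pair, Tapbpl rose by 3.09 ± 0.18 (adjusted p = 2e-06) and Tapbp by 2.15 ± 0.16 (adjusted p = 8.92e-06). Nlrc5 rose by 3.80 ± 0.13 (adjusted p = 1.12e-07), which ranked 123 of 10938 changes from the highest, and B2m ranked 622. The median change was 2.08 over the 10 genes and -0.07 over all tested genes. Without the 3 libraries carrying mural and fibroblast transcripts the 10 genes were again called higher, with changes from 1.08 for B2m to 3.79 for Nlrc5. Of the 11 microglial markers 4 were called lower and 2 higher after IFN-gamma, and their part in the result was not tested.

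Pam3CSK4 alone raised 5 of the 10 genes (20% of all tested genes were called higher) and lowered none (21.4% were called lower). These were Nlrc5, 3.01-fold, Tap1, 2.52-fold, H2-M3, 1.94-fold, Tapbp, 1.57-fold, and H2-K1, 1.48-fold. H2-D1, H2-T23, B2m, Tap2 and Tapbpl did not pass. This comparison asks what the agonist did without added cytokine, and it shares its Control libraries with the comparison above.

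Nlrc5 rose by 1.59 ± 0.13 on the log2 scale (edgeR adjusted p = 2.29e-05) and Tap1 by 1.33 ± 0.20 (adjusted p = 0.000606). H2-M3, the presenter of formylated peptides, rose by 0.96 ± 0.21 (adjusted p = 0.0052). These 3 were called higher under all alternatives tried. Tapbp rose by 0.65 ± 0.17 (adjusted p = 0.0117, 0.000147 to 0.0874 over the alternatives). It lost its call without Pam3CSK4 replicate 2, at 0.57, and with only those 2 groups in the fit. H2-K1 rose by 0.56 ± 0.20 (adjusted p = 0.0484, 0.0078 to 0.197 over the alternatives). Its call was lost in 8 settings, among them a fit of only those 2 groups and the replicate number as a block. The call was also lost without Control replicate 2 (0.57) or 3 (0.42), without Pam3CSK4 replicate 1 (0.62) or 2 (0.51), and without the 3 libraries with mural transcripts (0.42). The remaining genes stood at 0.19 ± 0.23 for H2-D1 (adjusted p = 0.548), 0.08 ± 0.22 for B2m (adjusted p = 0.8) and 0.26 ± 0.18 for Tap2 (adjusted p = 0.274). H2-T23 stood at -0.05 ± 0.22 (adjusted p = 0.885) and Tapbpl at -0.24 ± 0.19 (adjusted p = 0.339). Without the 3 libraries 4 genes were called higher and 2 lower, the lower ones being H2-T23 at -0.27 (adjusted p = 0.0459, 0.0459 to 1 over the alternatives) and Tapbpl at -0.39 (adjusted p = 0.0248, 0.0248 to 0.796 over the alternatives). Without Control replicate 3 alone, Tapbpl stood at -0.39 and was called lower. The 2 Pam3CSK4 libraries limit these results, and the summed microglial markers, 5459.7 to 5731 FPKM in Pam3CSK4 and 7093 to 10320.7 FPKM in Control libraries, moved with the treatment (8 of 11 called lower and 1 higher), and their part in the result was not tested.

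When IFN-gamma followed Pam3CSK4, 5 of the 10 genes were called lower than with IFN-gamma alone (17.2% of all tested genes were) and none higher (17% were). It shares its IFN-gamma libraries with the comparison of IFN-gamma and Control, and asks whether levels after the cytokine differed with earlier TLR2 activation. Such a difference in levels includes any effect of the agonist itself, and a change in the response to the cytokine is measured by the interaction, given below. The lower genes were H2-T23, at 0.5 times its IFN-gamma level, Tapbpl, at 0.521 times, B2m, at 0.621 times, Tapbp, at 0.68 times, and Tap2, at 0.696 times. Nlrc5, Tap1 and H2-M3 did not pass and had log2 changes of 0.01 ± 0.12, -0.05 ± 0.18 and -0.08 ± 0.19.

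H2-T23 changed by -0.999 ± 0.20 on the log2 scale (edgeR adjusted p = 0.00432), and Tapbpl changed by -0.94 ± 0.17 (adjusted p = 0.00212). Both were called lower under all alternatives tried. B2m changed by -0.69 ± 0.20 (adjusted p = 0.0256, 0.00158 to 0.083 over the alternatives). It missed the threshold without IFN-gamma replicate 2 or 3 or combined replicate 2 or 3, where it lay at -0.64, -0.64, -0.65 and -0.64. Tapbp changed by -0.56 ± 0.15 (adjusted p = 0.0189, 0.000773 to 0.0598 over the alternatives) and missed it without IFN-gamma replicate 3 or combined replicate 2 or 3, at -0.51, -0.56 and -0.52. Tap2 changed by -0.52 ± 0.16 (adjusted p = 0.0345, 0.000631 to 0.105 over the alternatives) and missed it without any of the combined replicates or IFN-gamma replicates 2 and 3, at -0.44 to -0.54. The classical heavy chains did not pass in the edgeR fit of all libraries, with H2-K1 at -0.44 ± 0.18 (adjusted p = 0.0918) and H2-D1 at -0.24 ± 0.21 (adjusted p = 0.417). H2-K1 was called lower without IFN-gamma replicate 2, at -0.58 (adjusted p = 0.0381, 0.0381 to 0.296 over the alternatives), and with DESeq2, at -0.44, which brought the count to 6. Without the 3 libraries with mural transcripts 6 genes were called lower, H2-D1 joining the 5 at -0.33 (adjusted p = 0.0352, 0.0352 to 0.716 over the alternatives). The sign of the small changes was not settled: H2-M3 and Tap1 were at 0.01 and 0.07 without IFN-gamma replicate 3, and Nlrc5 at -0.09 without IFN-gamma replicate 1. The summed microglial markers, 4958 to 5244 FPKM in combined and 8840.1 to 9535 FPKM in IFN-gamma libraries, moved with this result too (7 of 11 called lower and 2 higher), and their part in it was not tested.

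Measured in FPKM above the Control mean, the combined libraries held different shares of each gene's IFN-gamma rise. B2m kept 29.9% (21.8 to 44.3% from the lowest to the highest of 3 libraries), H2-T23 43.8% (41.9 to 45.8%) and Tapbpl 45.8% (43.2 to 49.0%). Tapbp, at 58.5%, Tap2, at 59.4%, H2-K1, at 64.4%, and H2-D1, at 73.8%, lay in between. H2-M3 kept 92.0% (88.8 to 97.3%), Tap1 96.8% (93.9 to 99.4%) and Nlrc5 101% (97.5 to 106%). The agonist alone gave 72.4% of the IFN-gamma rise of H2-M3, a higher share than for any other of the 10, the next being H2-K1 at 19.6% and Tapbp at 19.1%. Without the 3 libraries with mural transcripts the combined libraries held 11.7 and 34.3% for B2m in the 2 left, and on average 42.7% for H2-T23, 43.4% for Tapbpl, 62.1% for H2-D1, 83.6% for H2-M3, 91.5% for Tap1 and 95.9% for Nlrc5, and Pam3CSK4 62.6% for H2-M3. In that setting the combined libraries held on average 68.1% for H2-K1, 53.5% for Tap2 and 57.5% for Tapbp. These shares are descriptions on the deposited FPKM scale, and in each setting all rest on the same Control and IFN-gamma means.

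**Figure D4:**
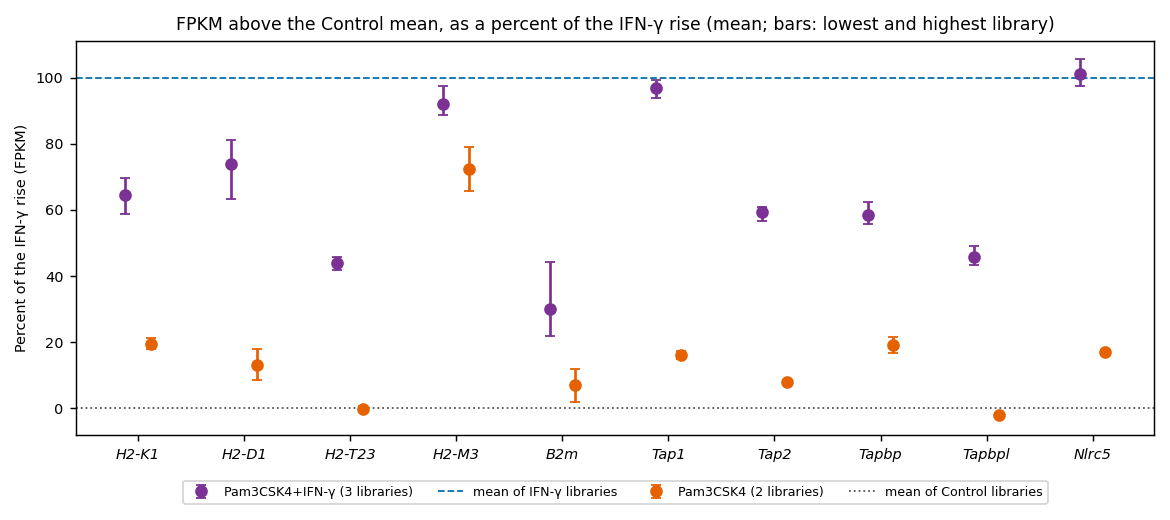
FPKM above the Control mean as a percent of the rise in IFN-gamma libraries (y axis) for the 10 genes, in combined libraries (purple) and Pam3CSK4 libraries (orange), with points at the mean and bars from the lowest to the highest library. Combined libraries reach the IFN-gamma mean for Nlrc5 (101%) and stay at 29.9% for B2m.

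The interaction, which is the Pam3CSK4 effect in the presence of IFN-gamma minus that in its absence, was negative for all 10 genes and was called for 5 of them, all lower (8.01% of all tested genes were called lower and 8.01% higher). Nlrc5 had the largest at -1.58 ± 0.18 on the log2 scale (edgeR adjusted p = 0.000917), followed by Tap1 at -1.39 ± 0.26 (adjusted p = 0.00891) and Tapbp at -1.21 ± 0.22 (adjusted p = 0.00815). These 3 were called under all alternatives tried. H2-M3 at -1.04 ± 0.28 (adjusted p = 0.0351, 0.00151 to 0.0994 over the alternatives) and H2-K1 at -0.998 ± 0.27 (adjusted p = 0.0354, 0.00108 to 0.131) passed as well. For Nlrc5, Tap1 and H2-M3 the effect of the agonist was 0.01 ± 0.12, -0.05 ± 0.18 and -0.08 ± 0.19 with IFN-gamma, against 1.59 ± 0.13, 1.33 ± 0.20 and 0.96 ± 0.21 without it.

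H2-T23 (-0.95 ± 0.30, adjusted p = 0.0577), Tap2 (-0.78 ± 0.24, adjusted p = 0.0576), Tapbpl (-0.70 ± 0.25, adjusted p = 0.0854), B2m (-0.77 ± 0.30, adjusted p = 0.111) and H2-D1 (-0.42 ± 0.31, adjusted p = 0.386) did not pass. The count depended on the libraries. Without the 3 libraries with mural transcripts 9 of the 10 genes were called lower, all but H2-D1, which stood at -0.29. Calls over all tested genes also rose in that fit, to 3100 from 1752. The count among the 10 genes was 8 without Control replicate 3 alone. It fell to 3, the genes Nlrc5, Tap1 and Tapbp, without Pam3CSK4 replicate 1, Pam3CSK4 replicate 2, IFN-gamma replicate 3, or any single combined replicate. H2-K1 missed the threshold in 8 of the 11 fits without a single library, at -0.84 to -1.05, those that left out Control replicate 2, Pam3CSK4 replicate 1 or 2, IFN-gamma replicate 1 or 3 or any combined replicate. H2-M3 missed it in 7, at -0.95 to -1.09, those that left out Pam3CSK4 replicate 1 or 2, IFN-gamma replicate 2 or 3 or any combined replicate.

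**Figure D5:**
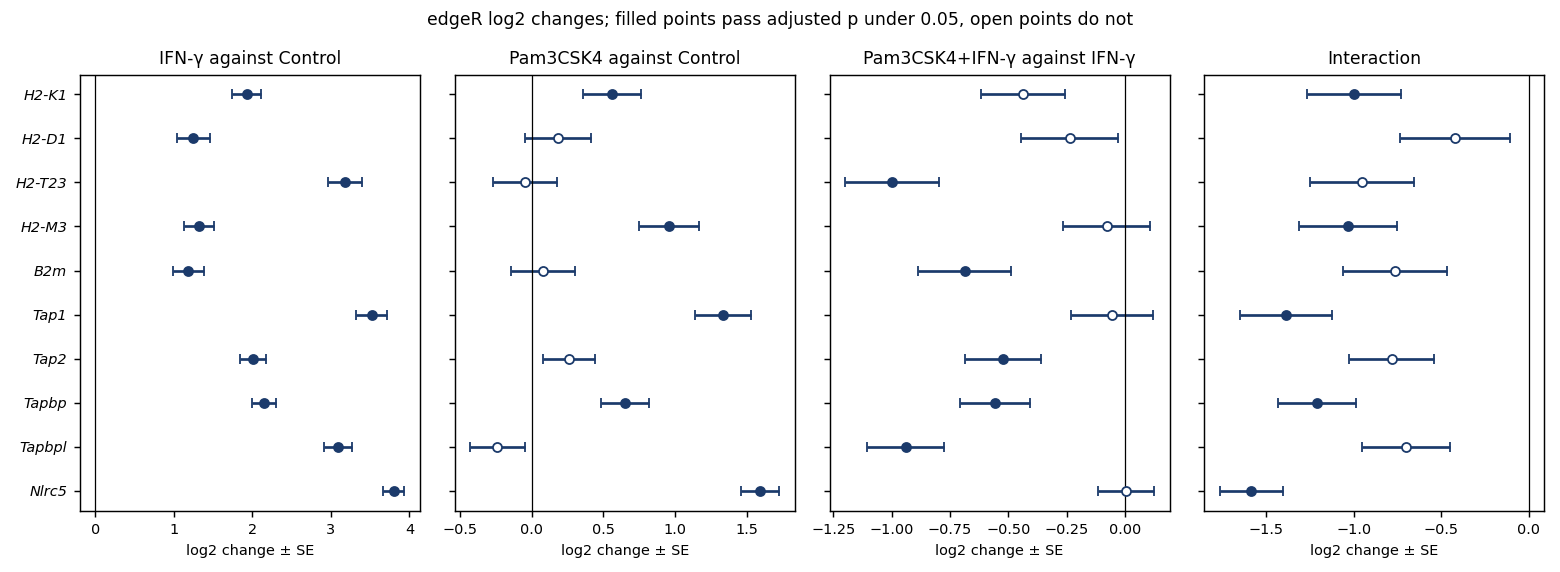
edgeR log2 changes ± SE (x axes) of the 10 genes in 4 comparisons, with filled points for those past an adjusted p of 0.05. All 10 points are filled and right of 0 for IFN-gamma against Control, and all 10 are left of 0 for the interaction.

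The comparison of the combined group with Pam3CSK4 asks what IFN-gamma added after the agonist. The combined group had 7 of the 10 genes higher (6.06% of all tested genes were) and none lower (3.04% were). Tapbpl changed by 2.38 ± 0.20 (edgeR adjusted p = 9.21e-05), H2-T23 by 2.23 ± 0.24, Nlrc5 by 2.22 ± 0.15 and Tap1 by 2.13 ± 0.21. Tap2 (1.22 ± 0.19), Tapbp (0.94 ± 0.17, adjusted p = 0.00906) and H2-K1 (0.93 ± 0.21, adjusted p = 0.0227) also rose. Tapbp lost its call without either Pam3CSK4 library, at 0.86 and 1.02. H2-K1 lost it without either Pam3CSK4 library or combined replicate 1 or 2, at 0.88 to 0.98. H2-D1 (0.83 ± 0.24, adjusted p = 0.0641), B2m (0.42 ± 0.23, adjusted p = 0.328) and H2-M3 (0.29 ± 0.21, adjusted p = 0.486) did not pass. Without the 3 libraries with mural transcripts all 10 genes were called higher. Calls over all tested genes rose in that fit too, above the 995 of the fit with all libraries. Against Control, 9 of the 10 genes were higher in the combined group (23.4% of all tested genes were) and none lower (24.2% were). The exception was B2m at 0.50 ± 0.20 (adjusted p = 0.0654, 0.0143 to 0.182 over the alternatives), which passed without Control replicate 2 at 0.71, without the 3 libraries at 0.35, with DESeq2 at 0.55 and with limma at 0.45 (log2(FPKM + 1)). Nlrc5 was 14.0-fold and Tap1 11.0-fold above Control in the combined group, against 2.02-fold for H2-D1. Of the 11 microglial markers 9 were called lower and 1 higher in combined against Control, and 3 lower and none higher against Pam3CSK4. Their part in these results was not tested.

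The balance of light to heavy chain transcripts was followed as a ratio within each library, to be compared between libraries and not read as a number of molecules. The ratio of B2m to the sum of H2-K1 and H2-D1 in FPKM was 5.67, 4.34 and 4.44 in combined libraries, 5.88, 7.38 and 5.81 in IFN-gamma, 7.12 and 5.86 in Pam3CSK4 and 6.51, 8.10 and 7.57 in Control libraries. On this scale the combined libraries lay below all others, while with CPM in place of FPKM combined replicate 1 (1.1549) lay level with IFN-gamma replicate 3 (1.1545). On the log2 scale the combined group differed by -0.40 from IFN-gamma and by -0.62 from Control (exact two-sided permutation p = 0.1 for both, the smallest that 3 against 3 libraries allow). The differences were -0.43 from Pam3CSK4 (exact p = 0.2), -0.22 for IFN-gamma against Control (exact p = 0.2) and -0.19 for Pam3CSK4 against Control (exact p = 0.4). The size of these differences in the B2m ratio depended on the setting, and the sign did not in those run. Combined against IFN-gamma was -0.37 with merged exons (exact p = 0.1), -0.37 with CPM (exact p = 0.2), -0.43 with all 13 listed H2-K, H2-D, H2-Q and H2-T genes below the line (exact p = 0.1) and -0.40 without the 3 libraries. With those 13 genes combined against Control was -0.96 (exact p = 0.1), IFN-gamma against Control -0.53 (exact p = 0.1) and Pam3CSK4 against Control -0.37 (exact p = 0.2). Pam3CSK4 against Control ran from -0.33 without Pam3CSK4 replicate 1 to -0.05 without Pam3CSK4 replicate 2, and IFN-gamma against Control was -0.15 without the 3 libraries.

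For reads that could be assigned to any of several heavy chains, the counts of 13 genes named H2-K, H2-D, H2-Q or H2-T were also summed. The class I heavy chain sum rose by 1.87 ± 0.19 after IFN-gamma (edgeR adjusted p = 7.3e-05). It did not pass after Pam3CSK4 (0.49 ± 0.21, adjusted p = 0.0851, 0.0224 to 0.28 over the alternatives) or in combined against IFN-gamma (-0.33 ± 0.19, adjusted p = 0.199, 0.031 to 0.472). Without Control replicate 3 the class I heavy chain sum was called higher after Pam3CSK4, at 0.29, and without the 3 libraries it was called lower in combined against IFN-gamma, at -0.36.

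Other heavy chains of the class I family and class I-like proteins changed after Pam3CSK4 too. Of 19 listed, 11 were tested. After Pam3CSK4 7 were called higher (20% of all tested genes were) and 3 lower (21.4% were). The median log2 change was 1.82, against -0.04 over all tested genes. H2-M2 and H2-T10 reached at most 0.694 and 0.764 FPKM in Control libraries, and H2-Q7 stood at 0.666, 1.39 and 0.695 FPKM there. H2-M2, H2-T10 and H2-Q7 thus passed the filter only through treated libraries. The counts and medians of this list rest partly on them. H2-M2, a little studied heavy chain, stood at 18.3, 16.7 and 15.7 FPKM in combined, 1.81, 2.60 and 2.01 FPKM in IFN-gamma, 22.3 and 19.2 FPKM in Pam3CSK4 and 0.694, 0.357 and 0.412 FPKM in Control libraries. It was thus higher in libraries given the agonist than in IFN-gamma libraries, changing by 5.39 ± 0.27 after Pam3CSK4 and by 2.97 ± 0.22 in combined against IFN-gamma (edgeR adjusted p = 1.34e-05). The Qa-2 genes H2-Q6 and H2-Q7, whose sequences are nearly identical so that their reads may be split between them, changed by 3.46 ± 0.30 and 3.88 ± 0.36 after Pam3CSK4 and by 4.47 ± 0.30 and 4.91 ± 0.36 after IFN-gamma, where H2-Q4 changed by 3.19 ± 0.18. After IFN-gamma 8 of the 11 were called higher and 3 lower, beside 20% and 21.6% of all tested genes (median 1.79, against -0.07 over all tested genes). In combined against IFN-gamma 3 were called higher and 2 lower (median 0.34, against -0.02; 17% and 17.2% of all tested genes were called), among them Cd1d1, a presenter of lipids, at 2.41 ± 0.37, and Fcgrt, the neonatal Fc receptor, at -1.36 ± 0.12. The interaction was called lower for 6 and higher for 2, beside 8.01% of all tested genes each way (median -1.42, against 0.06). It was -3.29 ± 0.46 for H2-Q7, -3.18 ± 0.39 for H2-Q6 and -2.42 ± 0.33 for H2-M2. Cd1d1 stood at 11.4, 13.2 and 11.6 FPKM in combined and 4.04, 1.49 and 1.29 FPKM in IFN-gamma libraries, and changed by 3.08 without IFN-gamma replicate 1, the highest of its group and a library with mural transcripts. Between combined and IFN-gamma libraries the list's counts ran from 2 to 6 higher and 1 to 2 lower over the alternatives. The counts without the 3 libraries with mural transcripts were 8 higher and 3 lower after Pam3CSK4, 4 higher and 2 lower in combined against IFN-gamma and 3 higher and 7 lower for the interaction.

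The proteasome, which cuts the peptides that TAP transports, was described through 8 catalytic subunit and activator genes. All 8 were called higher after IFN-gamma, beside 20% of all tested genes (median 2.14, against -0.07 over all tested genes). They were led by the immunoproteasome subunits Psmb8 at 2.56 ± 0.21 and Psmb9 at 2.52 ± 0.19 and the activator Psme2 at 2.17 ± 0.18. After Pam3CSK4 6 were called higher and none lower, beside 20% and 21.4% of all tested genes (median 0.82, against -0.04). Psme2 stood at 1.55 ± 0.19, Psmb8 at 1.07 ± 0.22 and the constitutive subunit Psmb5 at 0.94 ± 0.11. In combined against IFN-gamma Psmb5 was called higher at 0.55 ± 0.10, and Psme1 (-0.60 ± 0.20) and Psmb7 (-0.32 ± 0.08) lower (median -0.29, against -0.02). Psme1 and Psmb7 each missed the threshold without IFN-gamma replicate 3 (-0.46 and -0.23), without combined replicate 1 (-0.62 and -0.30) or without combined replicate 3 (-0.52 and -0.30), and Psme1 also without IFN-gamma replicate 1 (-0.62) or combined replicate 2 (-0.66). The interaction was called lower for 5 of the 8 and higher for none, beside 8.01% of all tested genes each way (median -1.12, against 0.06). Psmb8 stood at -1.60 ± 0.30, Psme2 at -1.52 ± 0.26 and Psmb7 at -1.19 ± 0.13. Between combined and IFN-gamma libraries the list's counts ran from 1 to 2 higher and 0 to 4 lower over the alternatives, with 1 higher and none lower with no filter and 2 higher and 4 lower without the 3 libraries, beside 17% and 17.2% of all tested genes. Its interaction count ran from 3 to 7 lower, with 3 lower with the replicate block or without Pam3CSK4 replicate 2, IFN-gamma replicate 3 or any combined replicate.

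Peptide trimming and folding genes of the cytosol and endoplasmic reticulum form the next list. Of 13 tested, 6 were called higher and none lower after IFN-gamma, beside 20% and 21.6% of all tested genes (median 0.29, against -0.07 over all tested genes). Lap3, a cytosolic leucine aminopeptidase, changed by 2.89 ± 0.13, Erap1, which trims peptides inside the endoplasmic reticulum, by 1.23 ± 0.15, and Calr, calreticulin of the loading complex, by 0.80 ± 0.09. In combined against IFN-gamma 2 were called higher and 2 lower (median 0.02, against -0.02), near the 17% and 17.2% of all tested genes. Lap3 stood at 34.8, 35.5 and 40.0 FPKM in combined and 97.4, 119 and 113 FPKM in IFN-gamma libraries (-1.59 ± 0.12), without overlap. Calr (-0.52 ± 0.09) was also lower, and the cytosolic aminopeptidase Npepps (0.80 ± 0.15) higher. After Pam3CSK4 6 were called higher and 2 lower (median 0.35, against -0.04), with Lnpep at 0.89 ± 0.24, Npepps at 0.56 ± 0.17 and the chaperone Hspa5 at 0.55 ± 0.10. Lnpep lost its call without Pam3CSK4 replicate 1 (0.60), and Npepps without Pam3CSK4 replicate 1 (0.48) or 2 (0.64). The interaction was called lower for 4 and higher for 1, beside 8.01% of all tested genes each way (median -0.08, against 0.06). Lap3 stood at -1.14 ± 0.18, Calr at -0.93 ± 0.14 and Hspa5 at -0.68 ± 0.14, the last missing the threshold without Pam3CSK4 replicate 2 (-0.68). Hspa5 also missed it after Pam3CSK4 with only those 2 groups in the fit (0.57). After Pam3CSK4 the list's counts ran from 2 to 8 higher and 0 to 2 lower over the alternatives, with 2 higher and none lower when only the 2 groups were fitted, 4 higher and 1 lower without Pam3CSK4 replicate 1, 3 higher and none lower without Pam3CSK4 replicate 2, and 8 higher and 2 lower without the 3 libraries. Of all tested genes 20% were called higher and 21.4% lower there.

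Among 17 tested genes of factors known to act at class I promoters, 8 were called higher and 1 lower after IFN-gamma. Of all tested genes 20% were called higher and 21.6% lower there (median 0.17 for the list, against -0.07 over all tested genes). Irf1, an activator that binds ISRE motifs, stood at 82.5, 94.8 and 87.4 FPKM in combined, 135, 139 and 165 FPKM in IFN-gamma, 5.61 and 4.60 FPKM in Pam3CSK4 and 7.24, 6.58 and 6.18 FPKM in Control libraries. It changed by 4.55 ± 0.16 after IFN-gamma, beside the class II transactivator Ciita at 10.20 ± 0.28. Ciita was at most 0.0532 FPKM in Control libraries and passed the filter only through libraries given IFN-gamma. In combined against IFN-gamma 6 were called lower and 1 higher, beside 17.2% and 17% of all tested genes (median -0.11, against -0.02). Ciita, a relative of Nlrc5, stood at 2.60, 2.37 and 2.23 FPKM in combined and 36.4, 50.9 and 43.8 FPKM in IFN-gamma libraries (-4.20 ± 0.20), where Nlrc5 overlapped between the groups. Irf8 (-1.13 ± 0.18) and Rfx5, a subunit of the X box binding complex (-0.93 ± 0.10), were lower too. After Pam3CSK4 3 were called higher and 5 lower (median -0.0014, against -0.04), near the 20% and 21.4% of all tested genes, with Stat2 at 1.39 ± 0.17. Ciita was called lower on 1 count in Pam3CSK4 and 10 counts in Control libraries, a ratio of Control over Pam3CSK4 of 6.94 (95% counting interval 0.987 to 301), and lost that call without Control replicate 1 or 3 or either Pam3CSK4 library, at -4.82 to -1.78, and under 7 of 9 other alternatives, such as DESeq2 (-2.74) and limma on log2(FPKM + 1) (-0.05). The interaction was called lower for 3 and higher for none, beside 8.01% of all tested genes each way (median -0.16, against 0.06). Among the lower were Stat2 (-1.13 ± 0.22) and Rfx5 (-1.02 ± 0.14), of which Stat2 missed the threshold without Pam3CSK4 replicate 2 (-1.09). After Pam3CSK4 the list's counts ran from 2 to 4 higher and 0 to 5 lower over the alternatives, with 2 higher and 1 lower when only the 2 groups were fitted, 3 higher and 2 lower with no filter or without Pam3CSK4 replicate 1, and 2 higher and none lower without Pam3CSK4 replicate 2. Leaving out the 3 libraries gave 3 higher and 4 lower after Pam3CSK4, 1 higher and 7 lower in combined against IFN-gamma and 1 higher and 3 lower for the interaction.

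Among all other tested genes, those whose log2 CPM ran most like the mean of the 10 over the 11 libraries were Psmb9, which overlaps Tap1 on the opposite strand (Pearson r = 0.997), Apobec3 (0.994), Irgm1 (0.993), Ifi204 (0.993) and Psmb10 (0.992). Those most like Nlrc5 were Hk3 (0.996), Gbp5 (0.996), Gbp6 (0.996), Gm4955 (0.994) and the neighbouring 9330175E14Rik (0.994), which overlaps Nlrc5 on the opposite strand. Within the 10, r with Nlrc5 was 0.996 for Tap1, 0.961 for Tapbp and 0.950 for H2-K1, and lowest for Tapbpl (0.899) and B2m (0.786). These values describe libraries that share 4 groups and their totals.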

How the data were processed

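Per the file headers, the deposited table gave whole-number counts and FPKM values made by the authors for 34745 genes in 11 libraries. The tools named in the submitters' processing notes are TopHat2 2.1.0 and Cufflinks 2.1.1 with Cuffdiff, on mm10. No source used here gives the annotation, counter or strand setting. Counts were fitted with edgeR 4.0.16 in R 4.3.3 (TMM scaling, quasi-likelihood test, 4 group means, all libraries in 1 fit without a replicate block), Benjamini-Hochberg adjusted over the 10938 genes tested, at 0.05 and two-sided. The standard error is the absolute log2 change over the square root of F. Alternatives used RLE factors, DESeq2 1.42.0, limma 3.58.1 on log2(FPKM + 1) and log2(FPKM + 0.1), other filters and omitted libraries. Scripts were tested on simulated counts. The genes, lists, motifs and the omission of the 3 libraries (for ratios and shares added after seeing the data) were chosen with earlier results of these data known. All 10 genes are named in each comparison; of each other list, the up to 3 largest called changes, in 4 comparisons; and the 5 genes most like the 10 or Nlrc5. A gene that these rules would name is not reported here. Correlations used log2 CPM with a prior count of 2. Replicate pairs of each group differed beyond counting noise. Same-numbered libraries deviated together in 6 of 15 pairs (r above 0.1, range -0.72 to 0.71). This could not decide whether same numbers are pairs, and they were not taken as pairs. Totals of 15033702 to 20321017 counts limit precision for few-count genes such as Ciita.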

Additional observations from a re-analysis of the deposited data

Results flagged for a closer look

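The effect of Pam3CSK4 differed with and without IFN-gamma, by the interaction test, for 5 of the 10 genes (edgeR adjusted p under 0.05). Of these, Nlrc5, Tap1 and Tapbp were called under all alternatives tried, while H2-M3 lost its call in 9 of them and H2-K1 in 10. The difference, effect with IFN-gamma minus effect without, was -1.58 for Nlrc5, -1.39 for Tap1, -1.21 for Tapbp, -1.04 for H2-M3 and -0.998 for H2-K1 on the log2 scale. For Nlrc5 the Pam3CSK4 effect was 0.01 ± 0.12 with IFN-gamma and 1.59 ± 0.13 without it, and for Tap1 -0.05 ± 0.18 and 1.33 ± 0.20. For H2-M3 it was -0.08 ± 0.19 with and 0.96 ± 0.21 without IFN-gamma. Tapbp and H2-K1 changed sign, at -0.56 ± 0.15 with and 0.65 ± 0.17 without IFN-gamma for Tapbp, and -0.44 ± 0.18 with and 0.56 ± 0.20 without it for H2-K1, where the value with IFN-gamma did not pass the threshold.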

How the results depend on the processing

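Over all alternatives, the 10 genes kept direction and side of the threshold in 804 of their values, gained a call in 48, lost one in 52 and changed sign in 16, none of these last on a called value; the cause was not tested. All 10 genes stayed higher after IFN-gamma throughout. Counts among the members moved as follows. Called higher after Pam3CSK4 were 3 with 2 groups in the fit (3 to 5 with 1 library left out). Called lower there were 2 without the 3 libraries with mural transcripts (0 to 1 with 1 left out). Called lower in combined against IFN-gamma were 2 with no filter (2 to 5 with 1 left out, 2 without IFN-gamma replicate 3 or combined replicate 2 or 3). Called lower for the interaction were 9 with DESeq2, with limma at either pseudocount and without the 3 libraries, 3 with no filter (3 to 8 with 1 left out).

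Counts over all genes were 2642 after Pam3CSK4 with 2 groups in the fit (2873 to 5620 with 1 library left out, 4532 as reported). Combined against Pam3CSK4 gave 1503 with DESeq2, 2314 with 2 groups and 2122 without the 3 libraries (405 to 693 with 1 left out, 995 as reported). The interaction gave 1080 with no filter and 3100 without the 3 libraries (664 to 3232 with 1 left out, 1752 as reported). The class I heavy chain sum gained its call after Pam3CSK4 with DESeq2 (0.55) and limma (0.51 at both pseudocounts; 0.29 to 0.61 with 1 left out), and in combined against IFN-gamma with 2 groups (-0.32) and without the 3 libraries (-0.36). For the interaction it gained its call with DESeq2 (-0.88), limma (-0.75 at pseudocount 1, -0.76 at 0.1) and without the 3 libraries (-0.65; -0.94 to -0.62 with 1 left out). In combined against Pam3CSK4 that class I heavy chain sum lost its call without either Pam3CSK4 library or combined replicate 2 (1.00 to 1.11 over all left out).

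Signs that changed were all of small values. After Pam3CSK4, H2-D1 was -0.0374 and B2m -0.117 without the 3 libraries (-0.0374 to 0.328 and -0.117 to 0.288 with 1 library left out, both lowest without Control replicate 3). H2-T23 was 0.0145 with DESeq2, 0.0167 and 0.0180 with limma at pseudocounts 1 and 0.1 and 0.0265 with no filter (-0.265 to 0.103 with 1 left out, above 0 without Control replicate 1 or 2 or Pam3CSK4 replicate 2). In combined against IFN-gamma H2-M3 was 0.00626 and Tap1 0.0718 without IFN-gamma replicate 3 (-0.179 to 0.00626 and -0.128 to 0.0718 with 1 left out). Nlrc5 was -0.0733 without the 3 libraries (-0.0894 to 0.0918 with 1 left out, below 0 without IFN-gamma replicate 1 or combined replicate 1).

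With the replicate number as a block, 5 of 66 results on the 10 genes and the sum, called or not, changed their side of the threshold, all losing a call, which were H2-K1 after Pam3CSK4 (0.55), in combined against Pam3CSK4 (0.94) and for the interaction (-0.99), Tap2 in combined against IFN-gamma (-0.53) and H2-M3 for the interaction (-1.001). The interaction was then called for 3 members. Same numbers deviated together in 6 of 15 pairs, and 2 of 11 libraries correlated best with their own number. The 3 libraries with mural transcripts deviated together. Control replicate 3 had r = 0.81 with IFN-gamma replicate 1 and 0.71 with combined replicate 3, and the latter 2 had 0.78. Deviations of the 2 Pam3CSK4 libraries from their mean are mirror images. This check therefore cannot decide whether same numbers are pairs. A fit of 2 groups was not run for the interaction. The 2 Pam3CSK4 libraries, reads of paralogous genes and of overlapping genes on either strand, and the unknown strand setting limit the values of H2-T23, H2-K1, H2-D1, Tap2, Tapbp and B2m.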
